A study of Mus musculus with 6 samples.

Results

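The adhesion receptors of T cells described here are 10 genes, *Alcam*, *Cd6*, *Cd2*, *Icam1*, *Icam2*, *F11r*, *Jaml*, *Cd226*, *Cd96*, and *Crtam*, of 57126 genes in the deposited count table. They were chosen by symbol, with the counts of these same samples known, so their differences between the groups are a description and carry no test. The 6 RNA-seq samples were OT-I CD8+ T cells, which carry a transgenic receptor for an ovalbumin peptide, and were harvested on day 6. All cultures were stimulated with nano-aAPCs, nanoparticles that present the peptide on MHC-I together with anti-CD28. TEff cells (3 samples) were expanded with IL-2, and TRM-like cells (3 samples) with IL-15 and TGF-β added to IL-2, so an effect of IL-15 cannot be told apart from one of TGF-β. The cells came from lymph nodes and spleens of OT-I mice whose age is not given in the sources used here, nor is whether the replicates came from separate animals, and p-values measure only the spread between these samples.

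Most of these receptors belong to the immunoglobulin family, whose extracellular domains bind a partner on a neighboring cell. CD2 binds CD48 in the mouse and strengthens contact with an antigen-presenting cell. CD6, a scavenger receptor-family protein related to CD5, binds ALCAM (CD166). ICAM-1 and ICAM-2 are ligands of the integrin LFA-1, which T cells use to arrest on other cells. JAM-A (*F11r*) sits in epithelial tight junctions and on leukocytes, and JAML binds the junctional protein CAR (*Cxadr*). CD226 and CD96 both bind the poliovirus receptor CD155 (*Pvr*), as does the inhibitory receptor TIGIT, and CRTAM binds the nectin-like protein CADM1.

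Between 18319013 and 23622621 reads per sample were counted on genes. All 7 CD8 T cell markers (*Cd8a*, *Cd8b1*, *Cd3d*, *Cd3e*, *Cd3g*, *Cd247*, and *Lck*) had at least 10 counts in every sample, with summed levels of 2150 to 2283 CPM (gene counts scaled to a common TMM-normalized library size) in the TEff and 2802 to 3769 CPM in the TRM-like samples, and *Cd4* had at most 2 counts. The libraries were not alike in their low counts. A count fell on 35130 and 35559 genes in TRM-like replicates 1 and 2, against 24229 to 24908 in each of the remaining libraries. On 1382 olfactory receptor genes, which T cells are not known to use, the level per summed length was 0.0235 and 0.0255 RPKM (CPM per kilobase of gene length) in TRM-like replicates 1 and 2, and 0.00231 to 0.00500 RPKM in the other 4. Their part in the results was not tested. TRM-like replicate 3 also departed from the other TRM-like samples in several of the genes below, and values without it are given beside several of them.

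RefSeq promoter windows were found for 5 of the 10 genes, and the 250 bases before the start of 4 of them are shown because these genes were the clearest examples of a higher (*Cd96*, *Jaml*) or lower (*Alcam*) level in the TRM-like cells or belong to a well-studied inducible promoter (*Icam1*). Capitals mark matches, on either strand, to one of 9 short motifs named after the factors that bind them. They were SMAD (CAGAC), kappa B (GGAANTTCC), STAT (TTCNNNGAA), interferon response (searched by its 10-letter core), RUNX (TGTGGT), AP-1 (TGANTCA), ETS (CCGGAA), T-box (TCACAC), and Sp1 or KLF (GGGCGG). The coordinates are those of GRCm38.p6 in the RefSeq table, whereas the counts use GRCm39.
Cd96 (chr16:46120249-46120498, minus strand): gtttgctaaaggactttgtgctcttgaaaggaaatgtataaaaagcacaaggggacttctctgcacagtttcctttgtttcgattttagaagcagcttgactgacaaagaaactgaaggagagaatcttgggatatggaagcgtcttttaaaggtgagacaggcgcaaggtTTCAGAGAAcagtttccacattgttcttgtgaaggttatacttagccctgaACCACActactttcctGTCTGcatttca
Jaml (chr9:45078933-45079182, plus strand): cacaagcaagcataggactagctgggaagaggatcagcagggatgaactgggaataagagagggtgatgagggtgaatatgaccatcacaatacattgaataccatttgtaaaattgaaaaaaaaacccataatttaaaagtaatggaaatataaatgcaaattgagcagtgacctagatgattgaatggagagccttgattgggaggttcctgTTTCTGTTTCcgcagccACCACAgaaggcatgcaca
Alcam (chr16:52453082-52453331, minus strand): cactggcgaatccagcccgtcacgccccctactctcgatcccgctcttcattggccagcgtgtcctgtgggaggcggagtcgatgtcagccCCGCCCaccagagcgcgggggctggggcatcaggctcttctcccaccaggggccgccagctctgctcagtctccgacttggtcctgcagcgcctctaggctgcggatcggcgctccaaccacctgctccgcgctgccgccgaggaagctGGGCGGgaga
Icam1 (chr9:21015690-21015939, plus strand): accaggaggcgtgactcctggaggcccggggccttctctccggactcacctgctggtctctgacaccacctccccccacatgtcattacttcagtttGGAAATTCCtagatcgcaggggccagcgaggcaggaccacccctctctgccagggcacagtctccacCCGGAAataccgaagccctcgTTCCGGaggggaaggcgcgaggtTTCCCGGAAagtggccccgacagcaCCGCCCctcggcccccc

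The *Cd96* window held a SMAD match at -12 to -8 from the start, a RUNX match at -28 to -23, and a STAT match at -79 to -71. The *Jaml* window held a RUNX match at -19 to -14 and an interferon response match at -36 to -27. Over 32841 windows of the same length, 42.2% held the SMAD letters, 14% RUNX, 7.02% STAT, and 2.98% the interferon response letters, so that a SMAD match is common by itself. The *Icam1* window held the kappa B letters at -153 to -145, found in 0.813% of windows, 3 ETS matches between -86 and -34 (12%), one of which shares bases with a STAT match at -42 to -34, and an Sp1 or KLF match (32.7%). The *Alcam* window held only Sp1 or KLF matches of those searched and was rich in G and C, at 69.2% with 22 CG dinucleotides. *Cd96* and *Jaml* were at 41.2% and 40.8% with 3 and 1, against medians of 52.4% and 6 over all windows. A match is a run of letters and does not show that a factor binds there.

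Across the 10 genes, 3 (*Jaml*, *Cd226*, and *Cd96*) were higher in every TRM-like sample than in every TEff sample, 3 (*Alcam*, *Cd2*, and *Icam2*) were lower in every TRM-like sample, and the groups overlapped in *Cd6*, *Icam1*, *F11r*, and *Crtam*. Of all 26154 genes tested, 20.3% did not overlap between the groups. Of the same genes, 10.6% lay above in every TRM-like sample and 9.71% below. All 10 genes passed the filter of at least 1 count in at least 3 samples, and all but *F11r* had at least 10 counts in every sample. By the threshold of the study's methods (adjusted p below 0.05 and absolute log2 fold change above 0.58), edgeR called *Jaml*, *Cd226*, and *Cd96* higher and *Alcam* lower. That is 4 of 10, where 3.01% of all genes tested were called, 1.52% as higher and 1.48% as lower. Nothing is read from the count, or from which of these calls the fits below keep, because the genes were listed with this contrast known. With a sample left out, the genes called were *Alcam* alone (without TEff replicate 1 or 3), *Alcam* and *Jaml* (without TEff replicate 2), *Alcam*, *Jaml*, and *Cd96* (without TRM-like replicate 1 or 2), or the same 4 and *Icam1* (without TRM-like replicate 3), and *Cd2* was added to the 4 by DESeq2, limma-voom, scaling by library totals alone, the fit with no filter, and the fit with a replicate block. In bulk RNA, fewer cells carrying a transcript and less of it per cell cannot be told apart. Their median log2 fold change was 0.02, which is also the median over all genes tested.

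**Figure D1:**
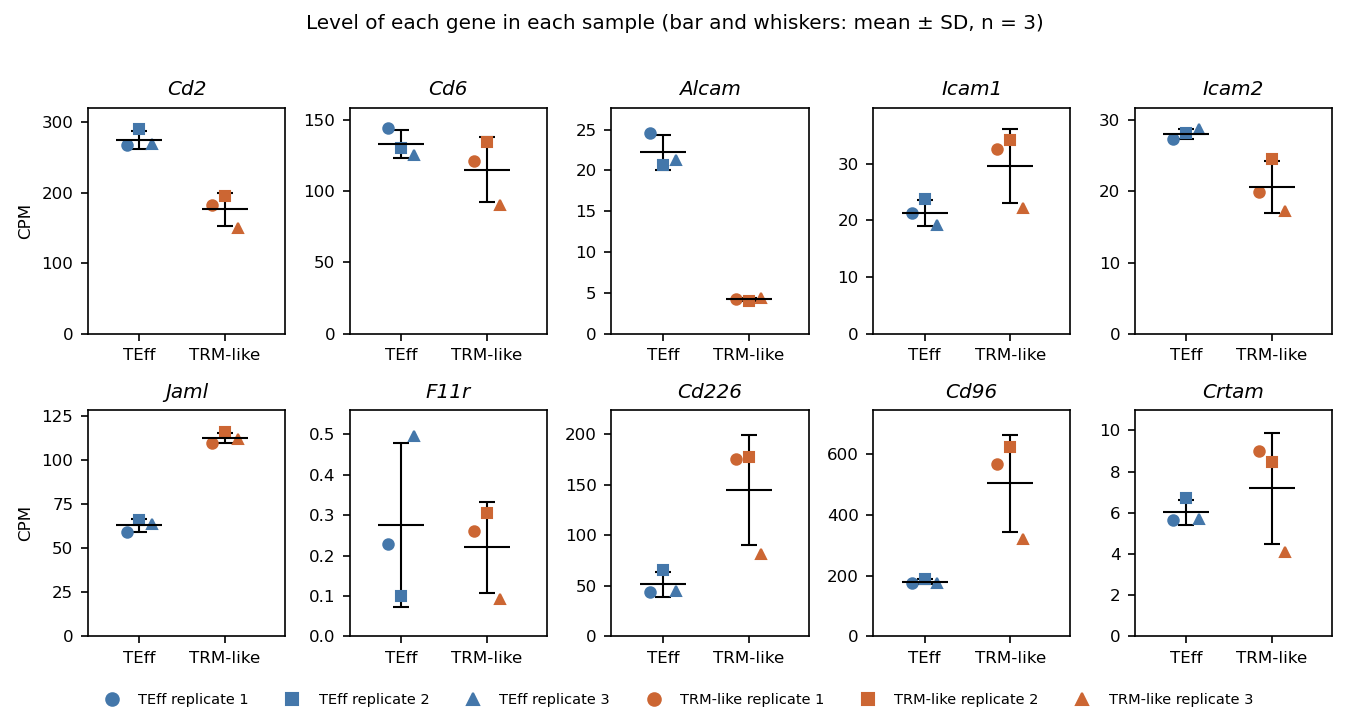
Level of the 10 genes in CPM (TMM-normalized) in each of the 6 samples, with a separate linear axis from 0 for each gene; points are samples, and bars and whiskers are the mean ± SD of 3 samples. *Alcam* sits at 3.98 to 4.38 CPM in the TRM-like samples against 20.7 to 24.6 in the TEff samples, and TRM-like replicate 3 is the lowest TRM-like sample for every gene drawn except *Alcam* and *Jaml*.

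*Cd2* (ENSMUSG00000027863; GRCm39 chromosome 3, 101183215 to 101195458, minus strand) was the most abundant of the group per length in the TEff cells. Its level was 267, 290, and 269 CPM in TEff replicates 1, 2, and 3, and 183, 196, and 150 CPM in TRM-like replicates 1, 2, and 3. Every TRM-like sample was lower, and the means were 275 ± 13.1 and 176 ± 23.6 CPM (SD, n = 3), a ratio of 0.640. The log2 fold change was -0.64 with a standard error of 0.14, and -0.55 without TRM-like replicate 3. The lowest TEff sample was 1.36 times the highest TRM-like sample. *Cd48*, the ligand of CD2, which T cells also carry, was at 208, 215, and 219 CPM in the TEff samples and 190, 211, and 297 CPM in the TRM-like samples, where the groups overlapped (log2 fold change 0.12, standard error [SE] 0.18, edgeR adjusted p = 0.813). Without TRM-like replicate 3, the log2 fold change of *Cd48* was -0.10. Within a sample, the RPKM of *Cd2* was 1.27 to 1.39 times that of *Cd48* in the TEff cells and 0.519 to 0.991 times in the TRM-like cells.

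*Cd6* (ENSMUSG00000024670; chromosome 19, 10766705 to 10807422, minus strand) was at 144, 130, and 125 CPM in the TEff samples and 121, 134, and 89.9 CPM in the TRM-like samples. TRM-like replicates 1 and 2 lay within or beside the TEff values and only replicate 3 was clearly lower, so that the groups overlapped. The log2 fold change was -0.21 (standard error 0.17), and -0.07 without TRM-like replicate 3. The lncRNA gene *A430093F15Rik* on the opposite strand shares 197 exonic bases with *Cd6* and had 3200 counts over the 6 samples against 15776 for *Cd6*. Opposite-strand genes also share exonic bases with *Icam2* (*Prr29*, 1818 bases), *Jaml* (*Gm10684*, 619), *Icam1* (*Gm47079*, 511), *F11r* (*Gm26641*, 178), and *Cd226* (*Dok6*, 79). Each of those genes had 52 counts or fewer over the 6 samples. The effect of such overlaps on the counts was not tested. *Cd5*, the relative of *Cd6* that lies 50339 bases away and also dampens T cell receptor signals, fell. It was at 162, 172, and 148 CPM in the TEff samples and 91.1, 96.7, and 74.5 CPM in the TRM-like samples, with no overlap (log2 fold change -0.88, SE 0.14, edgeR adjusted p = 0.0132). The *Cd5* call was lost without any one of the TEff samples and without TRM-like replicate 1, and over the 6 fits with a sample left out its edgeR adjusted p ran from 2.76e-04 to 0.0982. The RPKM of *Cd6* was 0.779 to 0.918 times that of *Cd5* in the TEff samples and 1.24 to 1.43 times in the TRM-like samples.

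*Alcam* (ENSMUSG00000022636; chromosome 16, 52069359 to 52274437, minus strand), the gene of the CD6 ligand, had the largest fold change of the 10. It had 538, 408, and 385 counts in TEff replicates 1, 2, and 3, and 98, 91, and 95 counts in TRM-like replicates 1, 2, and 3. In CPM this was 24.6, 20.7, and 21.3 against 4.27, 3.98, and 4.38. The lowest TEff sample was 4.72 times the highest TRM-like sample. The means were 22.2 ± 2.12 and 4.21 ± 0.210 CPM (SD, n = 3), so that the TEff mean was 5.27 times the TRM-like mean (log2 fold change -2.40, standard error 0.15). TRM-like replicate 3 did not depart here, at 1.06 times the mean of replicates 1 and 2. The RPKM of *Cd6* was 12.6 to 13.6 times that of *Alcam* in the TEff cells and 44.3 to 73.1 times in the TRM-like cells. Of the other genes in the CD2 and CD6 list, *Cd244a*, which encodes another receptor for CD48, rose from 14.1, 20.8, and 19.5 CPM to 120, 110, and 60.5 CPM (log2 fold change 2.42, SE 0.27, edgeR adjusted p = 0.00198) and stayed past the threshold with each sample left out. Those encoding cytoplasmic partners of CD2 or CD6, *Cd2ap*, *Cd2bp2*, *Pstpip1*, *Lcp2*, *Sh2d2a*, and *Ubash3a*, did not pass the test, with log2 fold changes from -0.31 to 0.18. In all, 1 of the 10 genes in this list rose and 1 fell, where 3.01% of all genes tested were called.

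*Icam1* (ENSMUSG00000037405; chromosome 9, 20926672 to 20940113, plus strand) was at 21.3, 23.7, and 19.1 CPM in the TEff samples and 32.5, 34.1, and 22.1 CPM in the TRM-like samples. TRM-like replicates 1 and 2 were above every TEff sample, and replicate 3 lay among them. The means were 21.4 ± 2.31 and 29.6 ± 6.53 CPM (SD, n = 3). The log2 fold change was 0.47 (standard error 0.18), and 0.63 without TRM-like replicate 3. *Icam1* is followed on the same strand by *Icam4*, 556 bases away, and by *Icam5*. *Icam4* had 0 counts in every sample, which allows up to 0.131 to 0.166 CPM per sample at 3 counts, for counting error only, and *Icam5* had 5 to 20 counts.

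*Icam2* (ENSMUSG00000001029; chromosome 11, 106263312 to 106278943, minus strand), which is expressed constitutively on lymphocytes and endothelium, was at 27.4, 28.2, and 28.8 CPM in the TEff samples and 19.9, 24.6, and 17.3 CPM in the TRM-like samples. The groups did not overlap, though TRM-like replicate 2 came close, with the lowest TEff sample at 1.12 times its level. The log2 fold change was -0.45 (standard error 0.15), and -0.35 without TRM-like replicate 3. The 2 ICAM genes thus had fold changes of opposite sign, and the RPKM of *Icam1* was 0.335 to 0.426 times that of *Icam2* in the TEff samples and 0.646 to 0.824 times in the TRM-like samples.

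LFA-1, their shared receptor, is the product of *Itgal* and *Itgb2*. *Itgal* was at 277, 309, and 262 CPM in the TEff samples and 199, 188, and 185 CPM in the TRM-like samples, each lower, but it was just short of the threshold (log2 fold change -0.57, SE 0.13, edgeR adjusted p = 0.0544, and 0.00320 to 0.251 over the alternatives). *Itgb2* was at 340, 324, and 336 CPM against 247, 259, and 300 CPM (log2 fold change -0.31, SE 0.13, edgeR adjusted p = 0.317). The LFA-1 and ICAM list includes the talin, kindlin, Rap1, and ERM genes that act with LFA-1 or anchor ICAMs. Of its 14 genes tested, 0 passed edgeR's threshold, where 3.01% of all genes tested did. DESeq2 and limma-voom also placed 0 of the list past the threshold. In edgeR, 5 of the 14 had an unadjusted p under 0.05. The share of all genes under that value is not given here, so nothing is read from the 5. The median log2 fold change of the 14 genes was -0.23.

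*Jaml* (ENSMUSG00000048534; chromosome 9, 44990469 to 45019832, plus strand) gave the most even difference. It was at 59.1, 65.9, and 64.0 CPM in the TEff samples and 110, 116, and 112 CPM in the TRM-like samples. All TRM-like samples were higher, and the lowest of them was 1.67 times the highest TEff sample. The means were 63.0 ± 3.50 and 113 ± 3.37 CPM (SD, n = 3), a ratio of 1.79, and the log2 fold change was 0.84 (standard error 0.12). TRM-like replicate 3 was at 0.992 times the mean of replicates 1 and 2. *Cxadr*, the gene of the JAML ligand CAR, was at 6.13, 5.87, and 6.74 CPM in the TEff samples and 8.07, 7.08, and 7.98 CPM in the TRM-like samples (log2 fold change 0.30, SE 0.16, edgeR adjusted p = 0.459). Per length, *Jaml* was 26.4 to 31.2 times *Cxadr* in the TEff samples and 37.8 to 45.8 times in the TRM-like samples.

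*F11r* (ENSMUSG00000038235; chromosome 1, 171265092 to 171292958, plus strand) was almost silent in both groups. It had 5, 2, and 9 counts in the TEff samples and 6, 7, and 2 counts in the TRM-like samples. With 16 counts against 15, the ratio of TRM-like to TEff levels was 0.829, with an exact 95% interval (Clopper-Pearson, counting error only) of 0.382 to 1.79. The interval leaves out the spread between replicates, so differences within it or somewhat beyond it could go undetected. The log2 fold change of *F11r* was -0.29 (standard error 0.69). Its RPKM was 4.42 and 4.77 times the olfactory receptor level in TRM-like replicates 1 and 2, the samples with more such counts.

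Among the JAM relatives, *Jam2* was at 1.28, 1.82, and 1.22 CPM in the TEff samples and 3.45, 3.45, and 1.01 CPM in the TRM-like samples. It passed the threshold only without TRM-like replicate 3 (adjusted p = 0.00313 from edgeR, against 0.422 with all samples and up to 0.809 over the alternatives). *Jam3* overlapped between the groups, at 0.663 to 0.911 CPM in the TEff and 0.568 to 1.00 CPM in the TRM-like samples. *Tjp1* and *Afdn*, scaffold genes in the same list, moved more. *Pard3*, another of them, had 0, 1, and 0 counts in the TEff samples and 6, 7, and 0 counts in the TRM-like samples, and the groups overlapped. *Tjp1*, which encodes ZO-1, the cytoplasmic partner of JAM proteins at tight junctions, had 7, 27, and 23 counts in the TEff samples and 1548, 1466, and 669 counts in the TRM-like samples. In CPM this was 0.320, 1.37, and 1.27 against 67.5, 64.0, and 30.8 (log2 fold change 5.80, SE 0.48, edgeR adjusted p = 4.24e-04), and the call held with each sample left out. *Afdn*, which encodes afadin, the actin linker of nectins, rose from 11.6, 7.09, and 12.1 CPM to 27.2, 24.1, and 24.7 CPM (log2 fold change 1.30, SE 0.20, edgeR adjusted p = 0.0106). The *Afdn* call was lost only without TEff replicate 1, at an adjusted p of 0.0538 from edgeR, among the fits with a sample left out. These 2 genes were the only ones of the 7 in the junctional list past the threshold, where 3.01% of all genes tested were called.

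*Cd226* (ENSMUSG00000034028; chromosome 18, 89195087 to 89290353, plus strand), an activating receptor for CD155 and nectin-2, was at 43.8, 65.7, and 44.5 CPM in the TEff samples and 175, 177, and 81.9 CPM in the TRM-like samples. All TRM-like samples were higher, but replicate 3 was only 1.25 times the highest TEff sample. The means were 51.3 ± 12.4 and 145 ± 54.5 CPM (SD, n = 3). The log2 fold change was 1.50 (standard error 0.30). Without TRM-like replicate 3, the TRM-like mean was 3.44 times the TEff mean, and replicate 3 alone was 1.60 times it.

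*Cd96* (ENSMUSG00000022657; chromosome 16, 45856020 to 45940614, minus strand), another CD155 receptor, was at 177, 190, and 175 CPM in the TEff samples and 566, 624, and 321 CPM in the TRM-like samples. The lowest TRM-like sample was 1.69 times the highest TEff sample. The means were 181 ± 7.75 and 504 ± 161 CPM (SD, n = 3; log2 fold change 1.48, standard error 0.23). As in *Cd226*, replicate 3 stood between the groups. Replicates 1 and 2 had a mean 3.29 times the TEff mean, and replicate 3 was 1.77 times it. *Cd96* took 23.0% to 23.3% of the summed CPM of the 10 genes in the TEff samples and 40.0% to 47.3% in the TRM-like samples.

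*Crtam* (ENSMUSG00000032021; chromosome 9, 40880987 to 40915924, minus strand), which appears on CD8 T cells after activation, had 124, 133, and 103 counts in the TEff samples and 206, 194, and 89 counts in the TRM-like samples. At 5.67, 6.73, and 5.69 CPM against 8.98, 8.48, and 4.10 CPM, the first 2 TRM-like samples were above every TEff sample and replicate 3 was below every one. The groups therefore overlapped, with a log2 fold change of 0.25 (standard error 0.28), and 0.52 without TRM-like replicate 3. Its ligand gene *Cadm1* had at most 8 counts in any sample.

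*Tigit*, the inhibitory receptor that shares CD155 with CD226 and CD96, was at 12.4, 21.9, and 13.2 CPM in the TEff samples and 14.5, 11.4, and 7.79 CPM in the TRM-like samples, and the groups overlapped (log2 fold change -0.49, SE 0.28, edgeR adjusted p = 0.489, and -0.29 on the log2 scale without TRM-like replicate 3). Per length, *Cd226* was at 0.722, 0.613, and 0.692 times *Tigit* in TEff replicates 1, 2, and 3, and at 2.46, 3.17, and 2.15 times *Tigit* in TRM-like replicates 1, 2, and 3. By the deposited lengths, the 2 receptors thus changed order, and TRM-like replicate 3 lay with its group on this ratio. *Cd96* was 3.64 to 6.02 times *Tigit* in the TEff samples and 16.4 to 22.9 times in the TRM-like samples. The ratio of *Cd96* to *Cd226*, by contrast, overlapped, at 5.95 to 8.34 in the TEff and 6.65 to 8.05 in the TRM-like samples. These ratios rest on the same counts as the levels and carry no test.

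**Figure D2:**
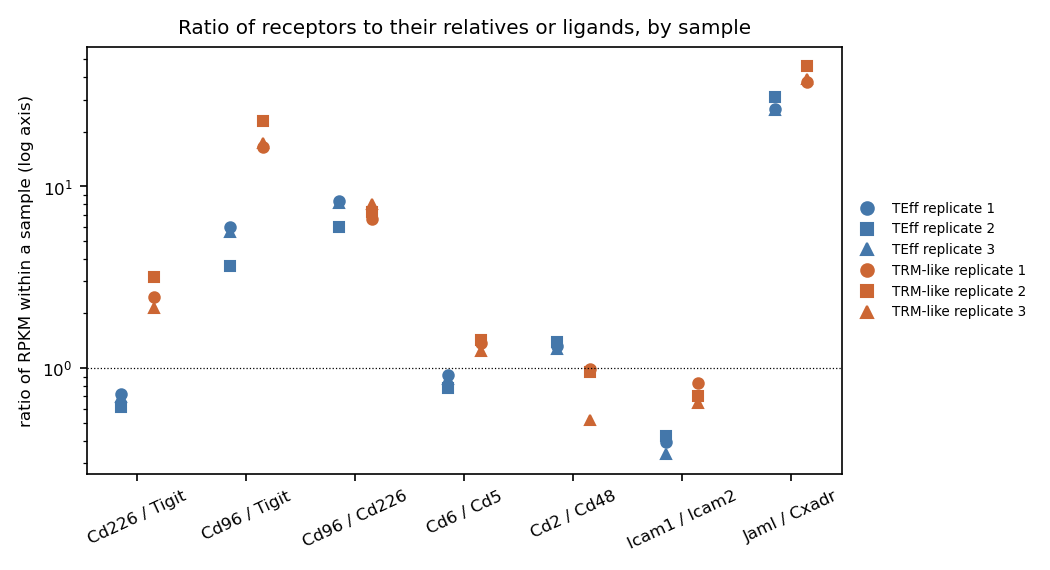
Ratio of the RPKM of 2 genes within each sample, on a log axis, for receptors against a relative or ligand; each point is a sample, and the dotted line marks equal RPKM. *Cd226* lies below *Tigit* in every TEff sample (0.613 to 0.722) and above it in every TRM-like sample (2.15 to 3.17), whereas *Cd96* over *Cd226* overlaps between the groups.

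The ligand genes of these receptors had few counts or overlapped between the groups. *Pvr* was at 15.7, 18.2, and 13.6 CPM in the TEff samples and 13.0, 14.6, and 12.1 CPM in the TRM-like samples (log2 fold change -0.26, SE 0.16, edgeR adjusted p = 0.528). *Nectin1* had at most 4 counts and *Nectin2* at most 18 counts in any sample. *Nectin3* passed edgeR's threshold (adjusted p = 0.0449), but on 2, 1, and 1 counts in the TEff and 7, 13, and 21 counts in the TRM-like samples. The ratio of its levels, TRM-like over TEff, was 9.07 with an exact 95% interval of 3.28 to 34.9 for counting error only. In TRM-like replicates 1 and 2 its RPKM was 1.14 and 1.96 times the olfactory receptor level, and 36.8 times in replicate 3. The *Nectin3* call was lost without any one of the TEff samples, without TRM-like replicate 2, and by limma-voom.

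*Pvrig*, which encodes an inhibitory receptor for nectin-2, rose from 1.28, 2.02, and 1.11 CPM to 8.94, 7.16, and 2.67 CPM (log2 fold change 2.09, SE 0.44, edgeR adjusted p = 0.0418). The *Pvrig* call was also lost by limma-voom, and among the 6 fits with a sample left out it was kept only without TRM-like replicate 3 (edgeR adjusted p of up to 0.212 in the others). *Scrib*, the gene of a polarity protein that binds CRTAM, fell from 48.5, 44.0, and 43.1 CPM to 28.9, 29.0, and 30.9 CPM (log2 fold change -0.61, SE 0.12, edgeR adjusted p = 0.0297), and its call was likewise kept only without TRM-like replicate 3 (edgeR adjusted p of up to 0.201 in the others). Of the 11 genes tested in the nectin list, 2 rose and 1 fell, where 3.01% of all genes tested were called.

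Among 12 tested genes of other immunoglobulin-family adhesion proteins, 1 passed the threshold. *Cd47*, which encodes the ligand of SIRPα and marks cells against phagocytosis, fell from 283, 310, and 296 CPM to 182, 184, and 178 CPM (log2 fold change -0.71, SE 0.12, edgeR adjusted p = 0.0165). Of the fits with a sample left out, the *Cd47* call was kept only in the one without TRM-like replicate 3 (edgeR adjusted p of up to 0.122 in the others). *Cd101*, which encodes an inhibitory receptor and is given here after its values were seen, was just short of the threshold at 22.4, 23.6, and 20.4 CPM in the TEff samples and 59.2, 60.0, and 28.5 CPM in the TRM-like samples (log2 fold change 1.15, edgeR adjusted p = 0.0529). It passed with DESeq2, with DESeq2's size factors or library totals in edgeR, with no filter, with the replicate block, and without TRM-like replicate 3. Over the 5 partner lists together, 5 of 54 genes tested rose and 3 fell, which is 14.8% against the 3.01% of all genes tested, and their median log2 fold change was 0.08. Without TRM-like replicate 3, 9 were past the threshold as higher and 3 as lower, and without TEff replicate 1 only *Cd244a* and *Tjp1* were. The lists were also written with earlier results of these data known.

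**Figure D3:**
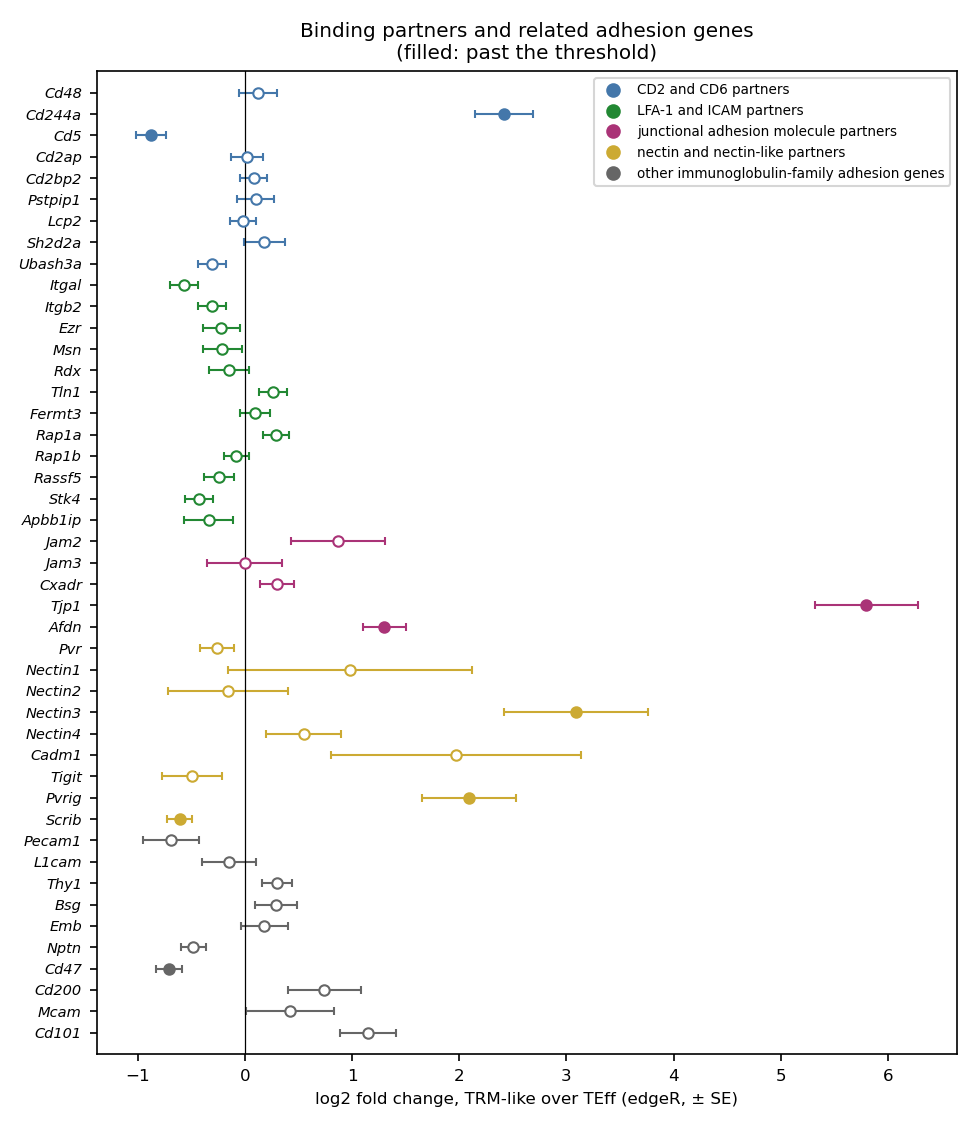
Log2 fold change of TRM-like over TEff cells (edgeR, whiskers ± SE, n = 3 per group) for 45 partner and related genes that had at least 10 counts in every sample, passed the threshold, or are direct binding partners of the 10, colored by list; filled points passed the threshold. *Tjp1* stands apart at 5.80, and none of the genes drawn from the LFA-1 and ICAM list is filled (*Icam5* and *Itgam*, with few counts, are not drawn).

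Per length, the order of the 10 genes in the TEff cells was *Cd2* (239 ± 11.4 RPKM, SD, n = 3), *Cd96*, *Cd6*, *Jaml*, *Icam2*, *Cd226*, *Icam1*, *Alcam*, *Crtam*, and *F11r*. The ranges of neighbors in this order did not overlap in the TEff samples. The order rests on the deposited lengths, which equal the exonic bases in GENCODE M39 for *Cd96* and *Crtam* but are shorter for the others. The gap was wide for *Icam2* (1282 against 7425 bases), *Cd6* (3032 against 7968), *Icam1* (2535 against 4969), and *Cd2* (1153 against 1944). The order with other lengths was not tested. In the TRM-like cells *Cd96* came first (231 ± 73.7 RPKM) and *Cd2* second (153 ± 20.5 RPKM). Their ranges overlapped over the 3 samples, although *Cd96* was above *Cd2* in each. *Jaml*, *Cd6*, *Cd226*, and *Icam2* followed, with each overlapping the next, then *Icam1*, *Crtam*, *Alcam*, and *F11r* with no overlap. *Alcam* and *Crtam* thus exchanged places, with *Alcam* at 3.38 ± 0.324 RPKM in the TEff and 0.643 ± 0.0321 RPKM in the TRM-like cells, and *Crtam* at 1.18 ± 0.118 and 1.40 ± 0.523 RPKM (SD, n = 3).

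**Figure D4:**
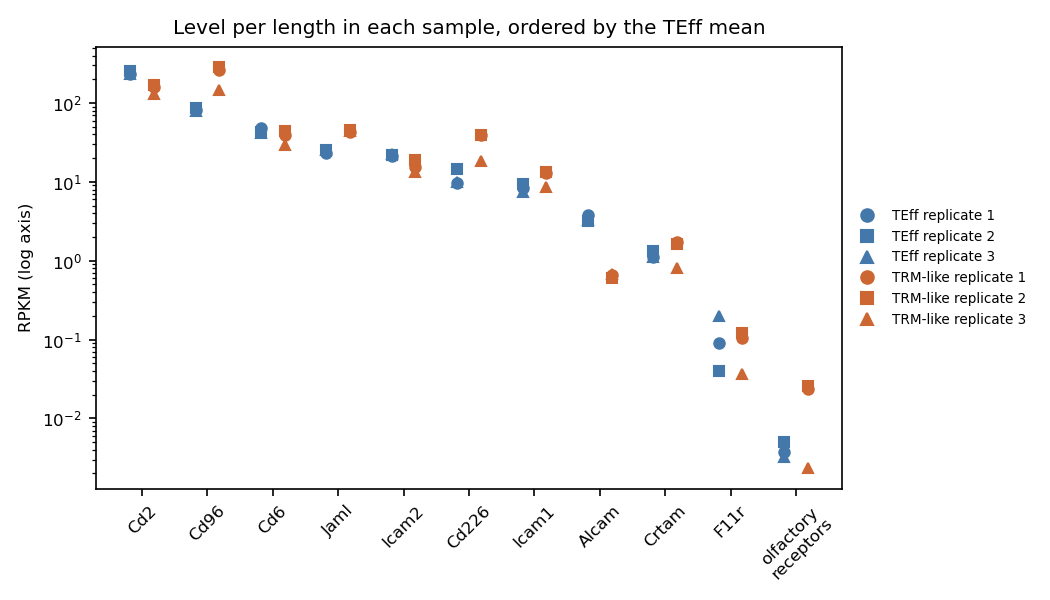
Level per length (RPKM, log axis) of the 10 genes in each sample, ordered by the TEff mean, with the level of 1382 olfactory receptor genes at the right; points are samples. *Cd2* leads in the TEff and *Cd96* in the TRM-like samples, *F11r* lies closest to the olfactory receptor level, and that level is higher in TRM-like replicates 1 and 2 (0.0235 and 0.0255) than in the other samples (at most 0.00500).

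The TRM-like samples differed from one another more than the TEff samples in 7 of the 10 genes. The coefficient of variation was 2.51% to 10.8% in the TEff samples for all genes but *Cd226* (24.2%) and *F11r* (73.3%). In the TRM-like samples it was 2.99% for *Jaml* and 4.99% for *Alcam*, but 32.0% for *Cd96*, 37.3% for *Crtam*, and 37.6% for *Cd226*. Replicate 3 was at 0.465 times the mean of replicates 1 and 2 in *Cd226*, 0.470 in *Crtam*, 0.539 in *Cd96*, 0.663 in *Icam1*, and 0.704 in *Cd6*. The summed level of the 10 genes was 753 to 821 CPM in the TEff samples, 1220 and 1319 CPM in TRM-like replicates 1 and 2, and 802 CPM in replicate 3.

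**Figure D5:**
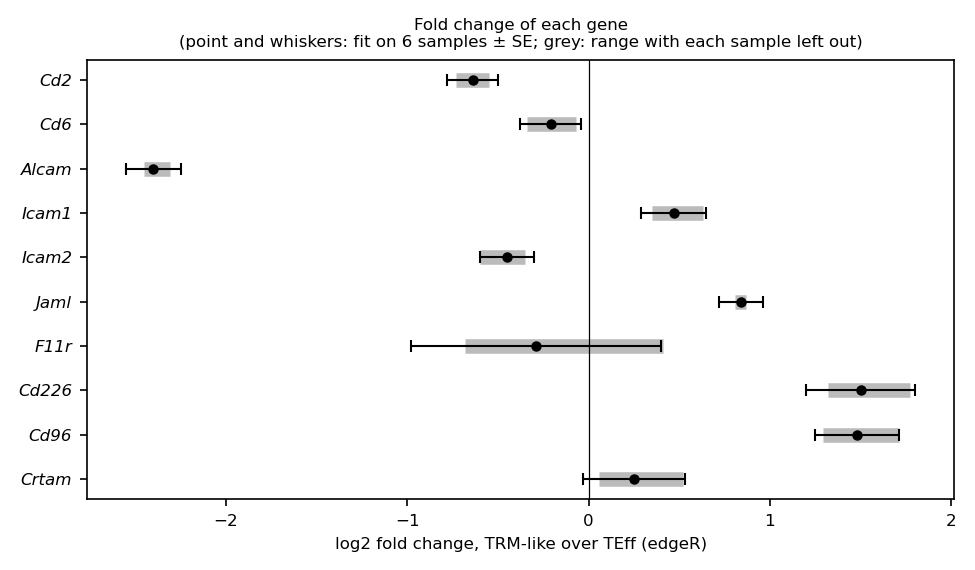
Log2 fold change of the 10 genes, TRM-like over TEff (edgeR on 6 samples, whiskers ± SE), with the range over the 6 fits that each left out a sample in gray. The range of *Alcam* is -2.45 to -2.31 and that of *Jaml* 0.81 to 0.87, whereas *F11r* runs from -0.68 to 0.41 across 0.

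Several genes listed as markers of other cells were close to absent. The endothelial list (*Cdh5*, *Kdr*, *Tek*, and *Emcn*), whose cells carry *Icam2* and *F11r*, summed to 0 CPM in the TEff and at most 0.481 CPM in the TRM-like samples, and the 5 erythroid genes to at most 0.174 CPM. The 4 stromal genes summed to at most 1.44 CPM. The summed CPM of the 8 myeloid genes was 4.48 to 6.07 in the TEff and 2.77 to 10.9 in the TRM-like samples, and of the 5 B cell genes 5.94 to 6.78 and 7.29 to 10.9. The dendritic list was at 5.99 to 11.2 and 1.29 to 6.11 CPM, and the NK cell list, most of it *Klrb1c*, at 9.97 to 22.3 and 0.0922 to 8.98 CPM, lowest in TRM-like replicate 3. The 4 epithelial genes summed to 2.02 to 2.43 CPM in the TEff and 2.17 to 5.16 CPM in the TRM-like samples, and *Cd4* and *Foxp3* to at most 1.34 CPM. *S100a8*, *Hba-a1*, and *Hba-a2* had 0 counts in every sample. In contrast, *Cd79a*, *Cd79b*, *Cd68*, *Itgax*, *Xcr1*, and *Epcam* had at least 10 counts in every sample. The part of such cells in the results was not tested.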

How the data were processed

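RNA was sequenced from 3 TEff and 3 TRM-like samples, grouped by the sample titles. Libraries were made with a stranded total RNA kit. Per the submitters' processing notes and the study's methods, the authors trimmed reads (Cutadapt 4.8) and used Rsubread with GENCODE M34 (GRCm39), and the deposited table holds raw counts and a length for each gene. The strand setting of the counting and the handling of reads that map to several places or overlap several genes are not given in the sources used here. The study's methods also mention removal of a batch effect but name no batch, and the sample labels give none, so no batch entered the fits and its part in the results was not tested. Symbols and coordinates came from GENCODE M39, in which 56620 of 57126 genes were found.

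The quasi-likelihood test of edgeR 4.0.16 (TMM normalization, R 4.3.3) was run with Benjamini-Hochberg adjustment over 26154 genes, those having 1 count or more in 3 samples or more. A gene was called when its adjusted p was under 0.05 and its log2 fold change beyond 0.58 in either direction. The standard error is the size of the log2 fold change divided by the square root of F. CPM and RPKM use TMM-normalized library sizes and the deposited lengths. Orders and ratios of RPKM between genes depend on those lengths, whereas the comparison of a gene between the groups does not. Libraries held 18319013 to 23622621 counts, and intervals cover counting error only. The members and gene lists were chosen with earlier results of these data known. Named were all 10 members, partner genes past the threshold (at most 5 per list), and direct binding partners, and a few neighbors or list members are also given by value outside that rule. On simulated counts for this comparison (26154 genes, 200 changed 4-fold), edgeR recovered 90.5% with 10.4% false among its calls, DESeq2 1.42.0 89.5% with 19.4% false, and limma-voom (limma 3.58.1) 87% with 7.45% false. The changed genes of the simulation were drawn from those with a mean of at least 10 counts. Each count was drawn independently, so a departure shared by many genes of a library was left out. Alternatives were DESeq2, limma-voom, other normalizations and filters, a replicate block, and each sample left out.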

Additional observations from a re-analysis of the deposited data

How the results depend on the processing

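The log2 fold changes of the 10 genes moved by less than each gene's own spread between replicates under the 14 alternatives, apart from *F11r*. That gene was fitted in 12 of them and went from -0.29 to 0.41 without TEff replicate 3. The spread was wide for *Cd226* (0.51 on the log2 scale), whose log2 fold change ran from 1.32 to 1.77. With a sample left out, *Cd226* was called only without TRM-like replicate 3. Of the 10 genes, all but *F11r* kept their sign. Of all genes tested, 786 were past the threshold with edgeR, 1264 with DESeq2, 1868 with no filter (where the median log2 fold change was 0.38, against 0.02), and 263 to 3579 with each sample left out. The lowest count came without TEff replicate 1 and the highest without TRM-like replicate 3, which shared 774 of its genes with the 786. The partner genes past the threshold numbered 8, 5 when only genes reaching 10 counts in all samples were tested (*Nectin3* and *Tjp1* then left the test and *Pvrig* the calls), 12 with no filter, and 2 to 12 with each sample left out. The cause of these changes was not tested. With the replicate number as a block, 2034 genes and 12 partner genes were past the threshold, as was *Cd2*. In that fit the prior degrees of freedom were infinite, and, as with no filter, *Cd101*, *Cd200*, *Itgam*, and *Pecam1* were added, named after their values were seen. Same-numbered samples had correlations of -0.292, 0.309, and 0.388 in their deviations from the group means over 14822 genes. Differently numbered samples had -0.491 to 0.518. With 3 samples per group these correlations are tied to one another, so they cannot decide whether same-numbered samples belong together. Counting limits *F11r*, *Nectin3*, and the other genes with few reads.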
